A study of Mus musculus with 6 samples.

Results

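The 34 genes described here belong to the integrated stress response that runs through the transcription factor ATF4, and to the amino acid metabolism that ATF4 controls. They were chosen by gene symbol from a count table of 27482 symbols, and all 34 were found there. RNA was sequenced from 6 libraries labelled as mouse heart. By their labels, 3 of them had FNDC4 overexpressed from an AAV9 vector (AAV9-hFNDC4), and the other 3 received a control AAV9 vector (AAV9-CTRL). AAV9 is an adeno-associated virus used to carry genes into the heart. FNDC4 is a secreted protein with a fibronectin type III domain. Both groups consisted of male mice that underwent ischemia/reperfusion (I/R), a temporary stop of blood flow followed by its return, and hearts were collected 24 h later. No group without I/R was analysed here, so every value comes from libraries described as I/R. The sources used here do not give the promoter of the vectors, the strain, the age or any pooling of animals.

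In the integrated stress response, kinases that sense amino acid shortage, unfolded protein, heme loss or viral RNA phosphorylate the initiation factor eIF2. General translation then falls, while the Atf4 transcript is translated better because of short reading frames upstream of its coding sequence. ATF4 pairs with other basic leucine zipper proteins and binds the C/EBP-ATF response element in genes of amino acid uptake, amino acid synthesis and stress feedback. In heart muscle the response is known from mitochondrial disease and from ischemia, where its secreted products GDF15 and FGF21 can enter the blood. RNA levels do not measure eIF2 phosphorylation or ATF4 protein.

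The core of that response element, TGATGNAA (TTNCATCA when read from the other strand), was searched for on both strands in the 250 bases upstream of every start listed in the RefSeq promoter table (GRCm38.p6), a feature that the choice by symbol did not use, although several of the genes are known ATF4 targets. Of the 34 genes, 30 had a RefSeq window and 8 of these (26.7%) held the core, against 1056 of 27025 genes with a window (3.91%). A gene with several listed starts was counted if any of its windows held the core. The 8 were Atf3, Chac1, Nupr1, Asns, Pycr1, Slc7a11, Fgf21 and Vldlr, and Slc7a11 held 2 copies. The windows of 5 genes are printed 5′ to 3′ on the strand of the gene, with the core in capitals, because they show the element in genes that were higher (Chac1, Pycr1, Vldlr), lower (Asns) and not called (Slc7a11) in the comparison below. They lie at chr2:119351023-119351082 (plus strand), chr11:120643818-120643877 (minus), chr19:27216794-27216853 (plus), chr6:7693214-7693243 (minus) and chr3:50443627-50443705 (minus).
Chac1: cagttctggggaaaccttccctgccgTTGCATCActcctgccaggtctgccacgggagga
Pycr1: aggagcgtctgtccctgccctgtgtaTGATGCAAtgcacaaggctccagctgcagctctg
Vldlr: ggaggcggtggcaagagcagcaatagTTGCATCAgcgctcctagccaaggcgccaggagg
Asns: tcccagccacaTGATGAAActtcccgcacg
Slc7a11: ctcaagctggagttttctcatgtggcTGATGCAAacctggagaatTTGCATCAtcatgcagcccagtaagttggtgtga
In Chac1 the core began at base -193, counted from the listed start at 119351242 on chromosome 2. The table lists 2 starts for Vldlr, and the core began at base -200 from the downstream one, at 27217020 on chromosome 19, so that it lies inside the span of the gene from its other start. In both it reads TTGCATCA, from the opposite strand. In Slc7a11 a pair of cores faced each other, beginning at bases -66 and -47 from the 1 listed start at 50443613 on chromosome 3, while the RefSeq gene span reaches further upstream, to 50499087. In Asns the listed start is 7693209 on chromosome 6, while the GENCODE gene span reaches upstream to 7693254, so that its core lies inside that span. The same holds for Nupr1 and Atf3, whose GENCODE spans reach upstream to 126630861 on chromosome 7 and 191218039 on chromosome 1. A match describes these letters only, and no binding was measured.

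Total counts lay between 32975817 and 36074046 per library, and no pair of libraries held identical counts. Whether each library stands for its own animal is not stated by the labels, and the p-values then reflect only library-to-library spread, which may be technical. The labelled tissue was checked against marker genes. Only 3 of 12 cardiomyocyte markers reached 1 CPM (counts scaled to a fixed total per library) in at least 3 libraries, Nkx2-5 and Pln had no counts, and the summed level of the 12 was 45.0 to 46.6 CPM in AAV9-hFNDC4 and 58.1 to 58.9 CPM in AAV9-CTRL. Endothelial markers reached 1 CPM in 2 of 8 cases (summed level 1.995 to 3.55 against 2.996 to 5.59 CPM, Cldn5 and Emcn at 0). Fibroblast markers summed to 2615 to 3173 CPM in AAV9-hFNDC4 against 1784 to 2227 CPM in AAV9-CTRL, with 4 of 8 above 1 CPM, smooth muscle and pericyte markers to 531 to 594 against 297 to 359 CPM, with 2 of 7, and macrophage markers to 18.9 to 22.1 against 35.4 to 42.6 CPM, with 3 of 6. Few genes carry these sums. Cspg4 (390 against 237 CPM) and Pdgfrb (169 against 81.8 CPM) made up most of the smooth muscle and pericyte sum. Tagln, of the same list, went the other way at 0.163 against 0.575 CPM. Tnnt2 (38.1 against 51.7 CPM) made up most of the cardiomyocyte sum, while Myh7 went the other way at 2.06 against 1.09 CPM. Cd68 (11.7 against 27.9 CPM) made up most of the macrophage sum. Lyz2 was at 7.04 against 7.62 CPM, and Cx3cr1 went the other way at 0.845 against 0.686 CPM. Leukocyte markers, mostly Coro1a, summed to 8.34 to 8.81 against 9.95 to 15.7 CPM, and neutrophil markers to at most 0.389 CPM. A sum is therefore not the level of a cell type. These marker levels go against the tissue label, so no change is assigned to heart muscle, and the part of these differences in the results below was not tested. Fewer cells of a type and less RNA per cell cannot be told apart in bulk RNA. The overexpressed gene was not analysed here.

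Within each group, single libraries stood apart in nearly all of the ATF4-linked genes. Of the 31 genes that passed the low-count filter, 30 were highest in AAV9-hFNDC4 replicate 2 among the AAV9-hFNDC4 libraries, against 43.7% of all 14663 genes tested. In AAV9-CTRL, replicate 2 was the lowest library in 27 of 31 (38% of all genes) and replicate 3 the highest in 27 of 31 (26.8% of all genes). The median deviation of the 31 genes from their own group mean was 0.25 on the log2 CPM scale in AAV9-hFNDC4 replicate 2, -0.21 in AAV9-CTRL replicate 2 and 0.16 in AAV9-CTRL replicate 3. Over all genes tested the same medians were 0.02, 0.01 and 0.00. Atf5 was the exception in AAV9-hFNDC4, where it was lowest in replicate 2. In AAV9-CTRL, Atf5, Nupr1 and Fgf21 were lowest in replicate 1 and Cebpg in replicate 3, and Slc38a2, Slc7a1 and Slc7a3 were highest in replicate 1 and Cebpg in replicate 2. Both features together, AAV9-hFNDC4 replicate 2 highest and AAV9-CTRL replicate 2 lowest, were found in 27 of 31 genes (87.1%) and in 22.8% of all genes tested. A comparison without both replicate 2 libraries was added after these values were seen. In the 27 genes with both features, leaving these libraries out by itself lowers the fold change. Lower calls gained in that comparison are therefore no separate support for a lower level. The cause of the pattern was not tested.

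**Figure D1:**
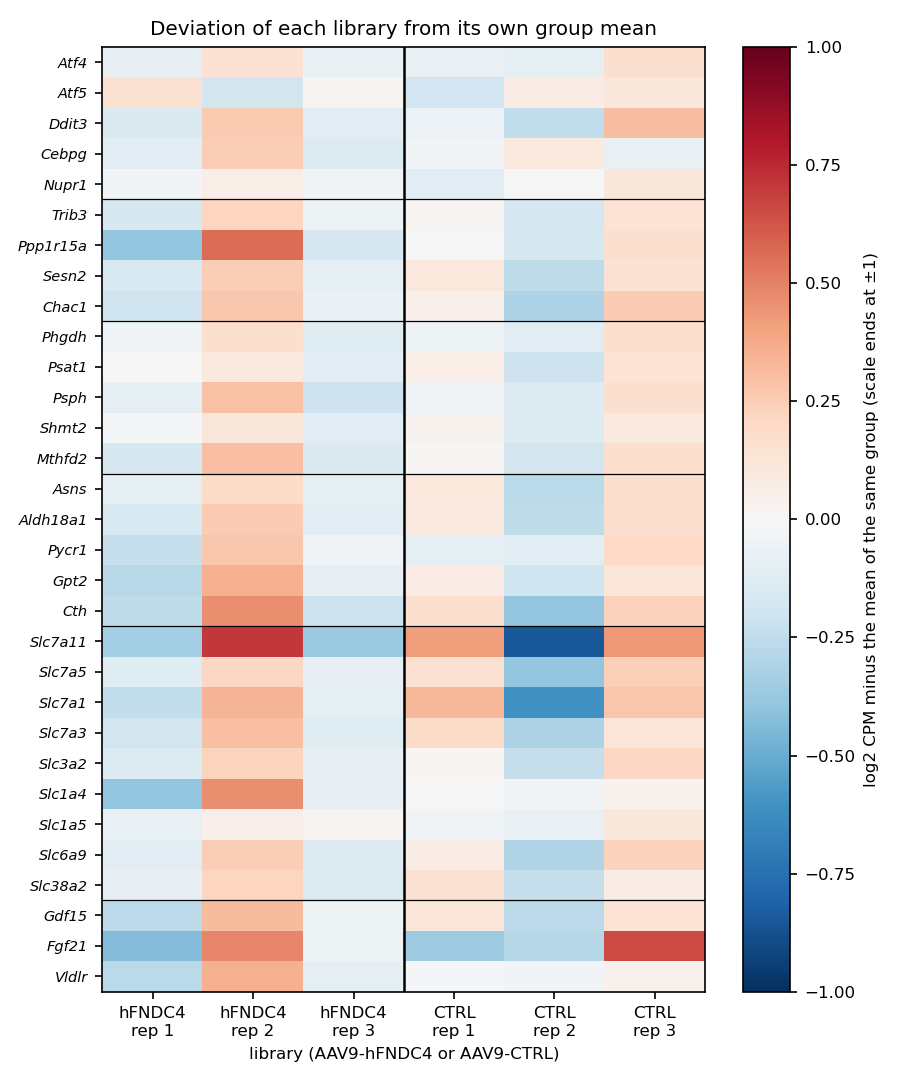
Each cell is the log2 CPM of a gene in 1 library minus the mean of the 3 libraries of its own group, for the 31 genes tested, ordered by role. The AAV9-hFNDC4 replicate 2 column is above its group mean in 30 of 31 genes, and both replicate 2 columns are deepest in Slc7a11, at 0.71 and -0.85.

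The question was how the RNA of these genes differs between libraries labelled AAV9-hFNDC4 and AAV9-CTRL, both described as collected after I/R. The overexpression itself was not checked. The genes had no common direction. The transporter genes Slc1a4 and Slc1a5, the aminotransferase gene Gpt2, the pseudokinase gene Trib3 and the lipoprotein receptor gene Vldlr were 1.72-fold to 2.72-fold higher in AAV9-hFNDC4, while the eIF2 phosphatase gene Ppp1r15a, the serine synthesis genes Phgdh, Psph and Psat1 and the stress cytokine gene Gdf15 were 1.31-fold to 2.42-fold lower. The Psat1 call held in 10 of 16 alternative settings, and the other calls named here held in at least 15. Atf4 itself did not pass the test. In all, 10 of 31 tested genes were higher, 9 lower and 12 did not pass (edgeR quasi-likelihood test, Benjamini-Hochberg adjusted over all genes, threshold 0.05). Of all 14663 genes tested, 22.1% were higher and 25% lower, against 32.3% and 29.0% of the 31. The median log2 fold change was -0.18 over the 31 genes and 0.01 over all genes. With a correction for transcript length these medians were 0.0068 and 0.026. Leaving out 1 library at a time gave medians of -0.25 to -0.03 for the ATF4-linked genes tested. The groups did not overlap, with AAV9-hFNDC4 above, in 10 of 31 (27.1% of all genes), and with AAV9-hFNDC4 below in 9 of 31 (29.5% of all genes). Changes of more than 2-fold were called in 4 of the 31 genes upward and 1 downward, against 993 and 1053 of all 14663 genes tested. Without both replicate 2 libraries, 6 genes were higher and 15 lower, 6 and 8 of which were also called with all libraries. In that comparison 25.2% of all 14913 genes tested were higher and 28.3% lower.

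**Figure D2:**
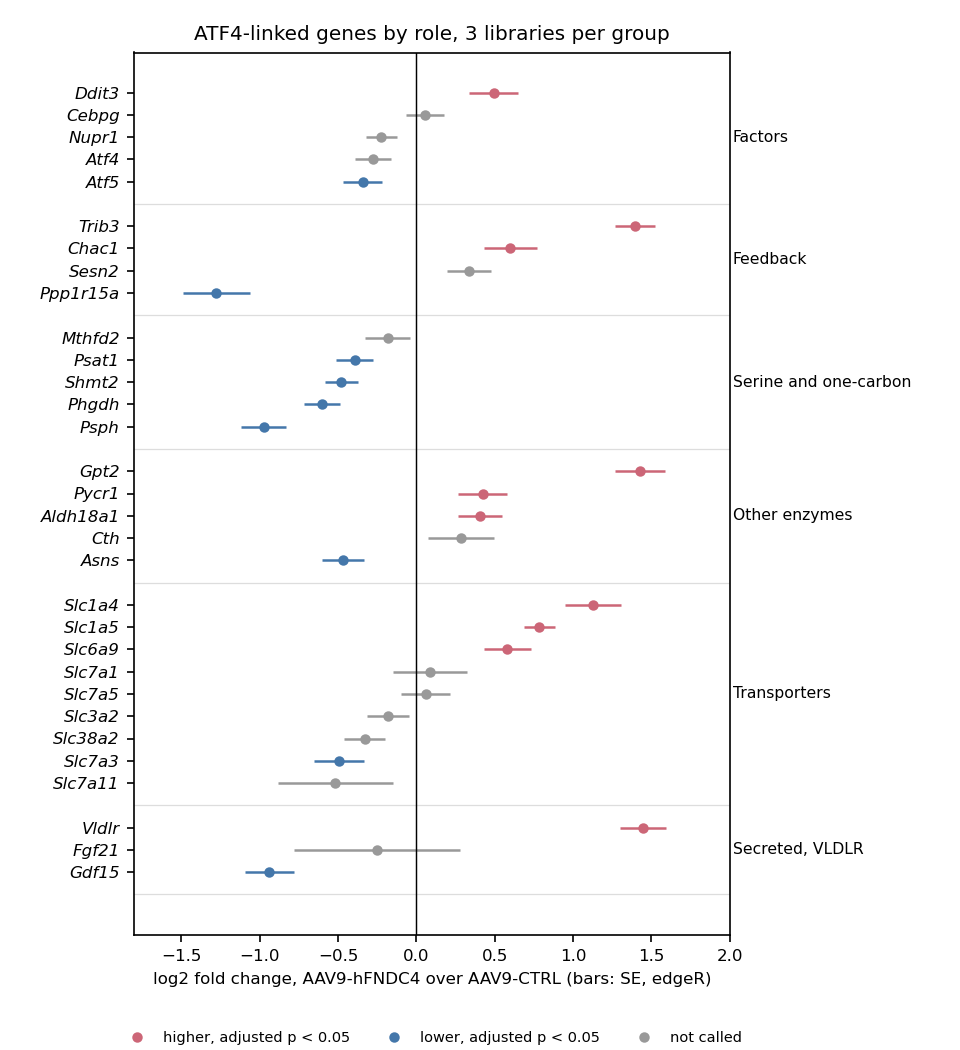
Points are log2 fold changes of AAV9-hFNDC4 over AAV9-CTRL with their SE for the 31 genes tested, grouped by role. Trib3, Gpt2, Vldlr and Slc1a4 lie above 1, Ppp1r15a lies below -1, and the 5 serine and one-carbon genes all lie below 0.

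Left out by the filter were 3 genes with at most 12 counts in any library. Atf3, an early stress factor of the same family, had 18 counts over the AAV9-hFNDC4 libraries and 23 over the AAV9-CTRL libraries. Cbs, which condenses homocysteine with serine, had 1 and 6 counts, and Stc2, a secreted glycoprotein, had 0 and 4. A count of 0 over the AAV9-hFNDC4 libraries allows a level of up to 0.0272 CPM for Stc2 (3 counts, counting error only). No fold is given for these 3 genes.

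Among the transcription factors, Ddit3 was higher and Atf5 lower, and the other tested members did not pass. In what follows, values per library are CPM on TMM-normalized library sizes in the order of replicates 1, 2 and 3. Atf4 (chromosome 15, 80255184 to 80257541), the hub of the response, stood at 682, 798 and 686 in AAV9-hFNDC4 and at 832, 814 and 975 in AAV9-CTRL. All AAV9-hFNDC4 libraries lay below all AAV9-CTRL libraries, yet the log2 fold change of -0.27 (SE 0.11) missed the threshold (edgeR, adjusted p = 0.0688). Leaving out AAV9-hFNDC4 replicate 2 gave a call (-0.35, adjusted p = 0.0466), as did leaving out AAV9-CTRL replicate 2 (-0.32, adjusted p = 0.0368), and was -0.0038 with a correction for transcript length, in a range of adjusted p from 0.0117 to 0.98 over its alternatives. Ddit3, which encodes CHOP, a partner and target of ATF4 tied to cell death (chromosome 10, 127290774 to 127296288), stood at 316, 419.9 and 324 against 237, 209 and 307. The lowest AAV9-hFNDC4 library exceeded the highest AAV9-CTRL library by a small margin, and the log2 fold change was 0.49 (SE 0.15) with an adjusted p of 0.0208 in edgeR. That call ended without AAV9-hFNDC4 replicate 2 (0.35), AAV9-CTRL replicate 1 (0.48) or AAV9-CTRL replicate 2 (0.38). Over its alternatives the log2 fold change ran from 0.24 to 0.93 and the adjusted p from 0.000178 to 0.118. Ddit3 shares 9.1% of its exon bases with Mars and Gm4189 on the other strand. Atf5, a related factor of the mitochondrial stress response, stood at 502, 397 and 461 against 500.5, 605 and 619. Its groups overlapped, the log2 fold change was -0.34 (SE 0.12), and the call (edgeR, adjusted p = 0.0384) ended without any of AAV9-hFNDC4 replicates 2 or 3 and AAV9-CTRL replicates 2 or 3 (-0.25, -0.35, -0.30 and -0.29) and with the length correction (-0.13). Cebpg, a dimer partner of ATF4, had a log2 fold change of 0.06 (SE 0.12), which turned to -0.07 without AAV9-hFNDC4 replicate 2. Nupr1, a small chromatin-associated stress protein gene, had -0.22 (SE 0.10), and this short transcript turned to 0.23 with the length correction.

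Of the 4 feedback and brake genes, Trib3 and Chac1 were higher, Ppp1r15a was lower and Sesn2 did not pass. Trib3 encodes a pseudokinase that binds ATF4 and AKT and damps the response (chromosome 2, 152337422 to 152344032). It stood at 492, 638 and 529.9 CPM in AAV9-hFNDC4 against 213, 186 and 231 CPM in AAV9-CTRL, so that the groups lay far apart. The log2 fold change was 1.40 (SE 0.13), 2.63-fold, with an adjusted p of 1.9e-05 in edgeR. Ppp1r15a encodes GADD34, the subunit that directs a phosphatase to eIF2 and so restores translation (chromosome 7, 45522916 to 45526268). Its levels went the other way, at 228, 441 and 265 against 751, 673 and 837 CPM. The groups did not overlap, and AAV9-hFNDC4 replicate 2 was the nearest to the AAV9-CTRL libraries. The log2 fold change of -1.28 (SE 0.21) corresponds to a level 2.42-fold lower (edgeR, adjusted p = 0.000725), and without AAV9-hFNDC4 replicate 2 it was -1.61. Chac1, a glutathione-degrading enzyme induced by ATF4 (chromosome 2, 119351229 to 119354381), stood at 26.2, 36.4 and 28.7 against 20.6, 15.9 and 23.8 CPM. Its groups did not overlap and the log2 fold change was 0.60 (SE 0.17, edgeR adjusted p = 0.0121), but without both replicate 2 libraries it was 0.31 and did not pass (adjusted p = 0.0556, range 0.00015 to 0.0556). Sesn2, a leucine sensor that restrains mTORC1, had a log2 fold change of 0.34 (SE 0.14, edgeR adjusted p = 0.0667), although its 3 AAV9-hFNDC4 libraries (91.98, 122 and 95.9 CPM) all lay above the AAV9-CTRL libraries (87.3, 68.02 and 89.5 CPM).

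**Figure D3:**
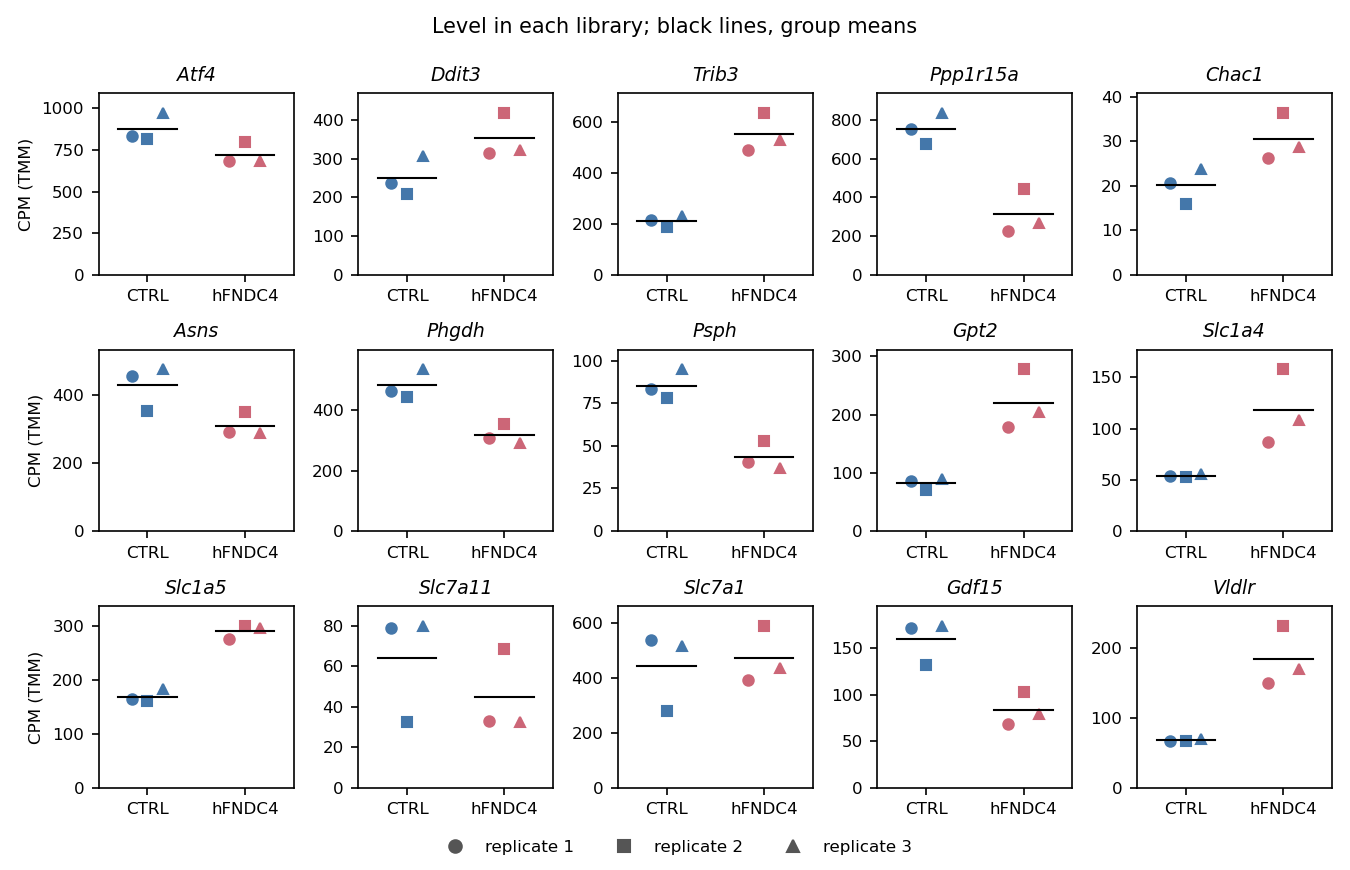
CPM on TMM-normalized library sizes for 15 genes, with 1 point per library, a symbol per replicate number and a black line at each group mean. Trib3, Gpt2, Slc1a4, Slc1a5 and Vldlr sit higher in AAV9-hFNDC4 without overlap, Ppp1r15a, Psph, Phgdh and Gdf15 sit lower, and Slc7a11 and Slc7a1 overlap.

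Serine synthesis and mitochondrial one-carbon genes were lower as far as they passed: 4 of 5 tested genes were lower (25% of all genes) and 0 higher (22.1%). Their median log2 fold change was -0.48. All 5 were lower without both replicate 2 libraries (28.3% of all genes), an omission that by itself lowers the fold change in these genes. Phgdh, Psat1 and Psph encode the successive steps from 3-phosphoglycerate to serine, Shmt2 passes the carbon of serine to folate in mitochondria, and Mthfd2 oxidizes that folate. Psph (chromosome 5, 129765558 to 129787449) was the most reduced, at 40.4, 52.9 and 37.1 against 83.2, 77.9 and 94.99 CPM. The highest AAV9-hFNDC4 library stayed under the lowest AAV9-CTRL library, and the log2 fold change was -0.97 (SE 0.14), 1.96-fold lower (edgeR, adjusted p = 0.000264). Psph shares 26.1% of its exon bases with Cct6a on the other strand, and Cct6a, a chaperonin subunit gene, was also lower, by a log2 fold change of -0.57 (SE 0.12). The sources used here do not state whether counting used the strand. Phgdh (chromosome 3, 98313170 to 98339990), the entry enzyme, stood at 308, 353 and 290.3 against 464, 445 and 535 CPM. Its groups were separate, with a log2 fold change of -0.60 (SE 0.12, edgeR adjusted p = 0.00134), which was -0.37 with the length correction. Shmt2 (chromosome 10, 127517123 to 127522444) stood at 297, 324 and 279 against 428, 379.9 and 446 CPM, also without overlap, and its log2 fold change was -0.48 (SE 0.11, edgeR adjusted p = 0.00351). Psat1 was lower at 363, 388 and 336 against 497, 411 and 521 CPM, a log2 fold change of -0.39 (SE 0.12). The Psat1 call (edgeR, adjusted p = 0.0154) was lost when AAV9-hFNDC4 replicate 1 or 3 or AAV9-CTRL replicate 1 or 3 was left out (-0.39, -0.34, -0.34 and -0.33), with adjusted p from 0.000926 to 0.0859 over its alternatives. Mthfd2 overlapped between groups at 142, 196 and 143 against 183, 159 and 204 CPM. Its log2 fold change of -0.18 (SE 0.14) did not pass (edgeR, adjusted p = 0.31), but with AAV9-hFNDC4 replicate 2 left out it was -0.35 and called (adjusted p = 0.0447, range 0.00213 to 0.974).

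The remaining enzymes divided, with 3 of 5 tested genes higher (Gpt2, Aldh18a1, Pycr1), Asns lower and Cth not called. Of all genes tested, 22.1% were higher and 25% lower. Gpt2 is the mitochondrial alanine aminotransferase, which interconverts pyruvate and glutamate with alanine and 2-oxoglutarate (chromosome 8, 85492576 to 85527560). It stood at 179, 278 and 205 CPM in AAV9-hFNDC4 against 86.1, 70.8 and 88.9 CPM in AAV9-CTRL. Every AAV9-hFNDC4 library was well above every AAV9-CTRL library, and the log2 fold change was 1.43 (SE 0.16), 2.69-fold (edgeR, adjusted p = 5.26e-05). Aldh18a1 and Pycr1 encode the first and last steps of proline synthesis from glutamate. Aldh18a1 stood at 277, 366 and 285 against 247, 195 and 259 CPM, without overlap, and Pycr1 at 19.9, 28.3 and 22.9 against 16.5, 16.2 and 20.3 CPM, with overlap. Their log2 fold changes were 0.40 (SE 0.14) and 0.42 (SE 0.16, edgeR adjusted p = 0.0326 and 0.0429). Both calls ended without AAV9-hFNDC4 replicate 2 (0.27 and 0.28) or AAV9-CTRL replicate 2 (0.29 and 0.37), that of Pycr1 also without AAV9-hFNDC4 replicate 3 (0.45) or AAV9-CTRL replicate 1 (0.40), with adjusted p up to 0.159 and 0.217. Asns, asparagine synthetase and a classic ATF4 target with the core shown above (chromosome 6, 7675169 to 7693254), stood at 291, 351 and 289.9 against 458, 353 and 477 CPM. AAV9-hFNDC4 replicate 2 and AAV9-CTRL replicate 2 nearly met, and the other libraries were clearly apart. The log2 fold change was -0.47 (SE 0.13, edgeR adjusted p = 0.0129). Without AAV9-hFNDC4 replicate 1 or 3 or AAV9-CTRL replicate 1 or 3 it was -0.41, -0.41, -0.39 and -0.39 and did not pass, without both replicate 2 libraries it was -0.69 and passed, and adjusted p ran from 0.000157 to 0.108 over its alternatives. Cth, which makes cysteine from cystathionine, had a log2 fold change of 0.29 (SE 0.21, edgeR adjusted p = 0.287) between overlapping groups.

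Amino acid transporters differed among themselves, with 3 of 9 tested genes higher (22.1% of all genes), 1 lower (25% of all genes) and 5 not called. The counts were 3 higher and 5 lower without both replicate 2 libraries (25.2% and 28.3% of all genes). The 3 higher genes carry small neutral amino acids. Slc1a4 encodes ASCT1, an exchanger of alanine, serine and cysteine (chromosome 11, 20302180 to 20332713). It stood at 87.3, 158 and 108 against 53.7, 52.8 and 55.2 CPM, with AAV9-CTRL libraries nearly equal and AAV9-hFNDC4 libraries widely spread above them, and the log2 fold change was 1.13 (SE 0.18), 2.18-fold (edgeR, adjusted p = 0.00043). Slc1a5 encodes ASCT2, the glutamine exchanger of proliferating cells (chromosome 7, 16781340 to 16798274). It stood at 276, 301 and 297 against 165, 160.2 and 183 CPM. Here the libraries within each group were close, the replicate 2 libraries differed little from the others, and the log2 fold change was 0.79 (SE 0.10, edgeR adjusted p = 0.00012). Slc6a9 encodes the glycine transporter GLYT1 and was higher at 93.1, 120.2 and 92.1 against 70.7, 54.4 and 78.9 CPM, by 0.58 (SE 0.15) on the log2 scale (edgeR, adjusted p = 0.0081). It shares 42.3% of its exon bases with genes on the other strand, among them Ccdc24.

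Of the other 6 transporters, only Slc7a3 passed with all libraries, while 5 were lower without both replicate 2 libraries. Slc7a5 (LAT1, large neutral amino acids) and Slc3a2, the heavy chain that both LAT1 and xCT need, had log2 fold changes of 0.06 (SE 0.16) and -0.18 (SE 0.14, edgeR adjusted p = 0.778 and 0.291). With both replicate 2 libraries left out, Slc7a5 turned to -0.22 and did not pass (adjusted p = 0.0665, range 0.0665 to 0.856), and Slc3a2 was -0.41 and was called (adjusted p = 0.00628, range 0.00628 to 0.727). Slc7a11, the cystine transporter xCT, stood at 32.99, 68.7 and 32.4 CPM in AAV9-hFNDC4 and at 79.1, 32.6 and 80.2 CPM in AAV9-CTRL. AAV9-CTRL replicate 2 was at the level of AAV9-hFNDC4 replicates 1 and 3, and AAV9-hFNDC4 replicate 2 was close to AAV9-CTRL replicates 1 and 3. The log2 fold change of -0.52 (SE 0.37) did not pass (edgeR, adjusted p = 0.276), and without both replicate 2 libraries it was -1.28 (adjusted p = 7.21e-06), the only one of its alternatives that called it, in a range up to 0.608. Slc7a1, the cationic transporter CAT1, was likewise highest in AAV9-hFNDC4 replicate 2 and lowest in AAV9-CTRL replicate 2, at 393, 590.3 and 435 against 537, 281 and 516 CPM. Its log2 fold change of 0.09 (SE 0.24) turned to -0.10 without AAV9-hFNDC4 replicate 2 and to -0.15 without AAV9-CTRL replicate 2. Slc7a3, the related carrier CAT3, was lower at 42.6, 59.5 and 44.4 against 77.4, 54.8 and 74.02 CPM with overlapping groups and a log2 fold change of -0.49 (SE 0.16, edgeR adjusted p = 0.0251). The Slc7a3 call ended without AAV9-hFNDC4 replicate 1 or 3 (-0.40 and -0.42) or AAV9-CTRL replicate 1 or 3 (-0.37 and -0.44) as well as under the length correction (-0.41), the adjusted p ranging from 8.55e-05 to 0.112. Slc38a2, the adaptive transporter SNAT2, stood at 699.6, 859 and 672 against 1032, 793 and 981 CPM. Its log2 fold change of -0.33 (SE 0.13) missed the threshold (edgeR, adjusted p = 0.0601). It was called when AAV9-hFNDC4 replicate 2 (-0.44, adjusted p = 0.0258) or AAV9-CTRL replicate 2 was left out (-0.44, adjusted p = 0.0109), in a range from 0.00123 to 0.23.

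Of the secreted factors, Gdf15 was lower and Fgf21 did not pass. Gdf15, a cytokine that acts on the hindbrain to lower food intake (chromosome 8, 70629393 to 70632456), stood at 68.3, 103 and 79.2 CPM against 172, 132 and 175 CPM. The groups were separate, the log2 fold change was -0.94 (SE 0.16), and the level was 1.92-fold lower (edgeR, adjusted p = 0.000583). Fgf21, a metabolic hormone, was scarce at 0.507, 1.41 and 0.815 against 0.665, 0.733 and 1.85 CPM, with a log2 fold change of -0.25 (SE 0.53) that none of its alternatives called. Vldlr, the receptor for triglyceride-rich lipoproteins and an ATF4 target with the core shown above (chromosome 19, 27216484 to 27254231), was higher by about as much as Gpt2 and Trib3. It stood at 149.6, 232 and 169.9 against 66.4, 66.2 and 69.6 CPM. As in Slc1a4, the AAV9-CTRL libraries were nearly equal and the AAV9-hFNDC4 libraries spread, and the log2 fold change was 1.45 (SE 0.15), 2.72-fold (edgeR, adjusted p = 3.36e-05), or 1.08 with the length correction, under which Trib3 was 1.60 and Gpt2 1.43.

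Levels of different genes were compared per length, as CPM per kilobase (kb) of annotated exon. Atf4 was the most abundant of the 31 genes in both groups, at 506 ± 51.2 per kb in AAV9-CTRL and 419 ± 38.1 in AAV9-hFNDC4 (SD, n = 3 libraries). In AAV9-CTRL it was followed by Atf5 (288 ± 32.5), Ddit3 (282 ± 56.5), Ppp1r15a (257 ± 27.98) and Phgdh (254 ± 25.3), whose means lay within 1 SD of their neighbours in this order. Trib3 came 13th in AAV9-CTRL at 104 ± 11.01 per kb and 3rd in AAV9-hFNDC4 at 273 ± 37.3, after Atf4 and Ddit3 (397 ± 65.03). Ppp1r15a stood 4th in AAV9-CTRL and 13th in AAV9-hFNDC4, at 106 ± 38.7 per kb. At the lower end, Vldlr (8.11 ± 0.225), Slc7a11 (6.5 ± 2.76), Pycr1 (4.69 ± 0.601) and Fgf21 (1.14 ± 0.703) were the least abundant in AAV9-CTRL. The spread of Slc7a11 reached its neighbours on either side. Slc3a2, the shared heavy chain, was at 149 ± 22.1 per kb, above its light chains Slc7a5 at 104 ± 22.8 and Slc7a11.

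**Figure D4:**
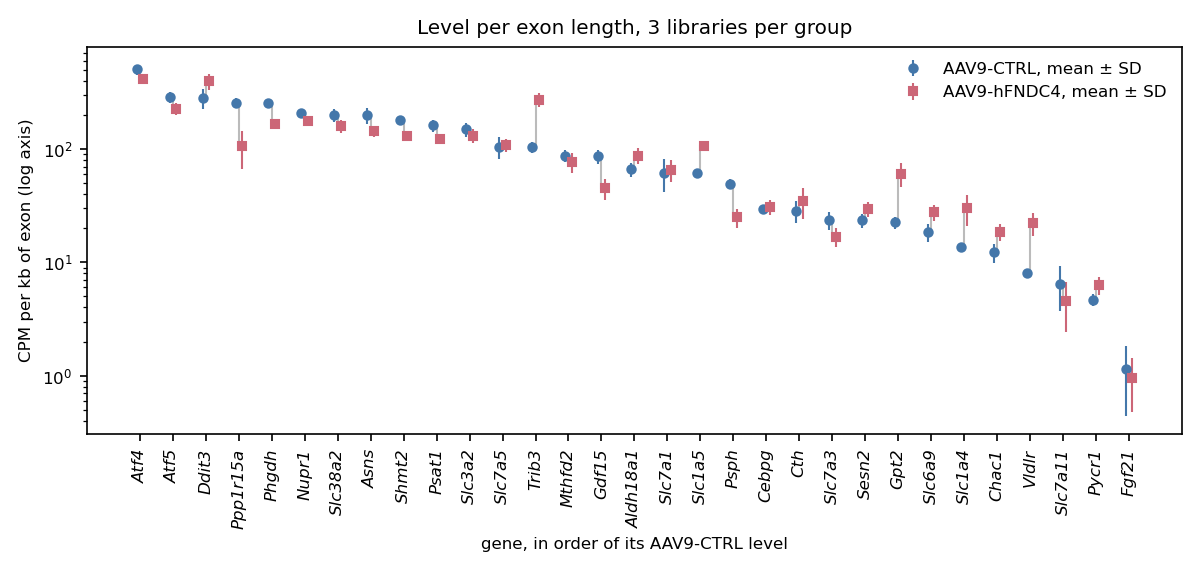
Mean CPM per kb of exon with SD over 3 libraries on a log axis, for the 31 genes in order of their AAV9-CTRL level, with a grey line joining the groups of a gene. Atf4 leads at 506 and 419 per kb, Trib3 moves from 104 to 273, and Fgf21 is last near 1.

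Other genes of the pathway, in lists that did not include the 34, were read from the same fit. Of the 109 tested genes in these lists, 19.3% were higher and 32.1% lower. Over all 14663 genes tested the shares were 22.1% and 25%. Of 20 genes for eIF2, its exchange factor eIF2B, its kinases and their regulators, 11 were lower and 3 higher. Lower were all 5 eIF2B subunits, with Eif2b4 at a log2 fold change of -1.004 (SE 0.13), Eif2b2 at -0.77 (SE 0.10) and Eif2b1 at -0.70 (SE 0.11), and the eIF2 subunit gene Eif2s1 at -0.80 (SE 0.13). The 3 higher genes were Oma1, a mitochondrial protease that relays stress to the kinase HRI, by 1.08 (SE 0.20), Eif2ak2, the RNA-sensing kinase PKR, by 0.47 (SE 0.12), and Ppp1cb, a phosphatase catalytic subunit, by 0.39 (SE 0.12). The kinase genes Eif2ak3 (PERK) and Eif2ak4 (GCN2) had -0.06 (SE 0.10) and 0.05 (SE 0.13) and did not pass, and are named for their role after their values were seen. Of 20 cytosolic aminoacyl tRNA synthetase genes, many of which ATF4 also induces, 8 were lower, led by Farsa at -1.24 (SE 0.11), Rars at -0.78 (SE 0.14) and Hars at -0.63 (SE 0.11), and only Eprs was higher, by 0.69 (SE 0.14). Without both replicate 2 libraries, 16 of the 20 were lower and 1 higher (28.3% and 25.2% of all genes). With the length correction 5 of the 20 were lower (22.2% of all genes) and 1 higher.

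Other reported ATF4 or CHOP targets went both ways, with 8 of 18 higher (44.4%, against 22.1% of all genes) and 4 lower (22.2%, near the 25% of all genes). Ero1a, an oxidase of the endoplasmic reticulum, was higher by 1.84 (SE 0.29) and Pck2, the mitochondrial PEP carboxykinase, by 0.78 (SE 0.11). The 4 lower were Bcl2l11 (BIM) at -0.95 (SE 0.13), Tnfrsf10b (a death receptor) at -0.81 (SE 0.16), and the autophagy genes Map1lc3b at -0.55 (SE 0.09) and Sqstm1 at -0.44 (SE 0.12). Bbc3 (PUMA), also a cell death gene, was among the higher ones, by 0.88 (SE 0.16), and is named for its role after its value was seen. Without both replicate 2 libraries the counts were 8 higher and 8 lower (25.2% and 28.3% of all genes). Of 18 tested amino acid transporters outside the 34, 5 were higher (27.8%) and 1 lower (5.56%), against 22.1% and 25% of all genes. Slc7a2, the cationic carrier CAT2, had the largest difference, from 21.3 ± 3.72 to 99.01 ± 36.3 CPM (SD, n = 3), which is 2.22 (SE 0.24) on the log2 scale, and Slc38a1 (SNAT1), Slc7a8, Slc38a9 and Slc38a6 were higher by 0.94 (SE 0.15), 1.36 (SE 0.33), 0.66 (SE 0.15) and 0.36 (SE 0.12). The lower one was Slc36a1, a lysosomal proton-coupled carrier, at -0.41 (SE 0.11). Of 33 other enzymes of serine, one-carbon, proline, glutamate and sulfur metabolism, 11 were lower (33.3%) and 4 higher (12.1%), against 25% and 22.1% of all genes. Among the lower ones were Pycrl, of proline synthesis, at -0.81 (SE 0.12), the glycine cleavage subunit Gcsh at -0.72 (SE 0.10) and the glutathione synthesis subunit Gclm at -0.70 (SE 0.11). Among the higher ones were Aldh1l1 by 0.73 (SE 0.19), Mtr (methionine synthase) by 0.60 (SE 0.15) and Bcat2 by 0.35 (SE 0.12).

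**Figure D5:**
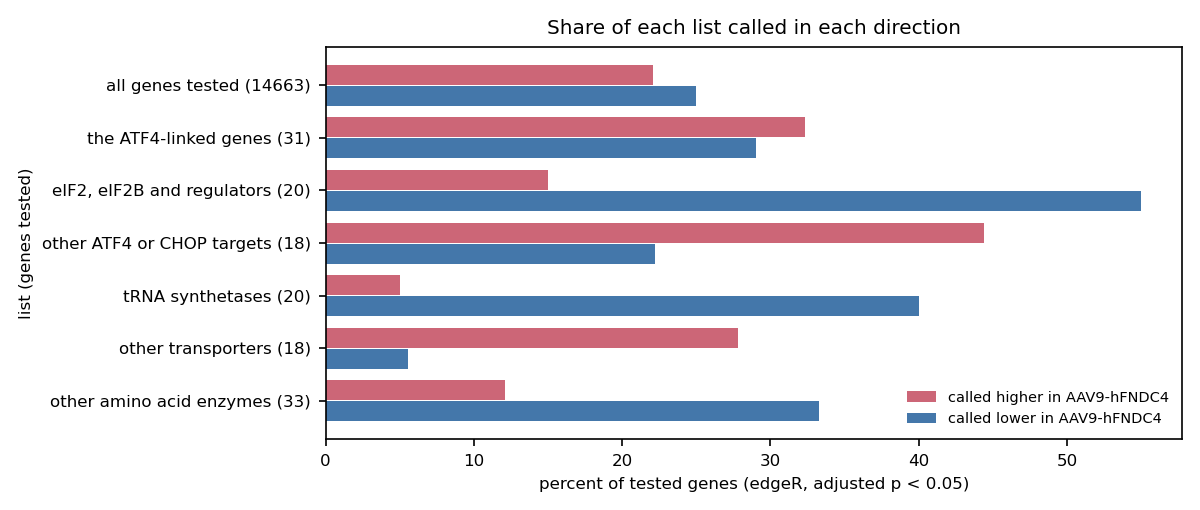
Bars give the percent of tested genes of each list called higher or lower in AAV9-hFNDC4 (edgeR, adjusted p below 0.05), with all 14663 genes at the top at 22.1% and 25%. The eIF2 list has 55.0% and the tRNA synthetases 40.0% lower (with the length correction 13 and 5 of 20 genes each), and the other ATF4 or CHOP targets the longest for higher genes (44.4%).

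Longer transcripts had higher fold changes over all genes tested with a known length (Spearman's rho 0.353 across 13544 genes, which are not independent replicates), with medians on the log2 scale of -0.50 in the shortest 10% of genes and 0.46 in the longest 10%. With a correction for this trend, 9 of the 31 genes were higher and 7 lower, against 21.6% and 22.2% of all genes, and 6 of the 7 were also called lower without it. Atf5, Asns, Slc7a3 and Pycr1 lost their calls and Slc38a2 gained one. Trib3, Gpt2, Vldlr and Slc1a4 stayed above 1 on the log2 scale, and Ppp1r15a was -1.20. Across the 16 alternatives run, the calls of Trib3, Gpt2, Vldlr, Slc1a4 and Ppp1r15a held in every one. The calls of Slc1a5, Slc6a9, Phgdh, Psph, Shmt2 and Gdf15 held in 15 of 16, and were lost only under a requirement of a more than 2-fold change.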

How the data were processed

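RNA-seq counts per gene symbol for 6 libraries, 3 per group, were taken as the authors deposited them, whole and not normalized. The submitters' processing notes name fastp, HISAT2, HTSeq, DESeq2, R 3.2.0 and the GRCm38 (mm10) build. What each did, with which parameters, annotation release and strand setting, is not given in the sources used here. All 34 genes, the pathway lists and the marker lists were chosen with earlier results of these data known. Counts were filtered (filterByExpr), scaled by TMM and tested with edgeR 4.0.16 (quasi-likelihood, robust) in R 4.3.3, with Benjamini-Hochberg adjustment over 14663 genes and a threshold of 0.05. SE is the absolute log2 fold change over the square root of F. Exon lengths and loci came from GENCODE vM21 (GRCm38), promoter windows from RefSeq (GRCm38.p6). Named were all 34 genes, up to 4 genes with the smallest p per pathway list, and every called gene of a direction holding 5 or fewer, except a few genes of the pathway lists that are not reported here. Tested on simulated data of 14663 genes, of which 200 were changed, the fit recovered 40% of 1.5-fold and 83% of 2-fold changes. There, 9.56% of its calls were false. The data themselves gave 3240 higher and 3668 lower genes, so these shares need not apply to them. Alternatives were RLE and upper-quartile scaling, other filters, DESeq2 1.42.0, limma-voom (limma 3.58.1), a replicate block, a fold threshold, a length correction (loess, span 0.4) and leaving out libraries. The overexpressed gene was not analysed here.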

Additional observations from a re-analysis of the deposited data

How the results depend on the processing

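Over 16 alternatives, the 31 gene-level results gave 409 values with the same direction and call, 55 that lost and 15 that gained a call, and 16 of opposite sign. With an unadjusted p below 0.05 and a log2 fold change above 1, 1117 genes were higher and 1120 lower in place of 3240 and 3668, among them 4 and 1 of the ATF4-linked genes in place of 10 and 9, and 5 and 2 of the other pathway lists in place of 21 and 35. Leaving out 1 library at a time gave 7 to 10 ATF4-linked genes higher and 5 to 11 lower, the 5 being reached when AAV9-hFNDC4 replicate 3 or AAV9-CTRL replicate 3 was dropped, and 26 to 46 lower genes in the other lists. Without both replicate 2 libraries, an alternative added after seeing the data, 6 were higher and 15 lower, and 56 genes of the other lists were lower; the cause was not tested. Signs turned only in genes that were not called with all libraries. The length correction gave Cebpg -0.081, Nupr1 0.23, Mthfd2 0.0068, Slc7a1 -0.21 and Fgf21 0.18. Over all sets of libraries left out, both replicate 2 libraries included, the ranges were -0.073 to 0.13 for Cebpg, -0.16 to 0.42 for Cth, -0.22 to 0.18 for Slc7a5, -0.34 to 0.27 for Slc7a1 (called at -0.34) and -0.92 to 0.38 for Fgf21. Cebpg was at -0.02 without both replicate 2 libraries. Upper-quartile scaling moved the median of all genes to 0.06 and gave 11 higher and 8 lower. In simulated data with 3 libraries a group and 200 changed genes, 40% of 1.5-fold changes were recovered, a share that need not apply to the data themselves.

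The replicate numbers were not used to pair the samples. Same-numbered libraries deviated from their group means with correlations of -0.142, -0.284 and -0.12, and no library correlated best with its own number. With 3 libraries a group, the deviations within a group depend on each other, so these values cannot exclude a pairing. With the replicate number as a block, 8 ATF4-linked genes were higher and 6 lower, which does not show a weaker effect.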

Other observations

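The order of libraries seen in the ATF4-linked genes was counted in the other pathway lists. AAV9-hFNDC4 replicate 2 was the highest and AAV9-CTRL replicate 2 the lowest of its group in 16 of 20 cytosolic aminoacyl tRNA synthetase genes (80%), against 22.8% of all genes tested. The same held in 11 of 20 genes of the eIF2 list (55%), 10 of 18 other ATF4 or CHOP targets (55.6%), 12 of 33 other enzymes (36.4%) and 5 of 18 other amino acid transporters (27.8%). Within the 34 genes, it held in all 9 amino acid transporters, all 5 serine and one-carbon genes and all 4 feedback genes, but in 2 of 5 transcription factors. These counts describe the libraries, and no test was made of them.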
